A study of Mus musculus with 29 samples.

Results

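The 10 genes described here encode 3 secreted growth factors or peptides that act on vessels (Vegfa, Pgf and Adm), the angiopoietins Angpt1 and Angpt2, the receptors Kdr, Flt1, Tek and Tie1, and the endothelial adhesion molecule Pecam1. They were chosen by name, and 20 of the array's 41174 probes carry one of these names, by symbol or by accession. They stand for 10 of 27670 gene names in all. The probes were read on 29 one-colour Agilent arrays of whole uterus from female CD-1 mice, an outbred strain with no engineered allele named in the labels. GEN mice received genistein, a soy isoflavone that binds oestrogen receptors, at 50 mg/kg/day as newborns on postnatal days 1 to 5, and CON mice received corn oil, the vehicle, on the same days. Uteri were taken in pregnancy, with 4 GEN and 3 CON arrays at gestation day (GD) 1.5, 3 of each exposure at GD3.5 and 4 of each at GD4.5 and again at GD5.5. Adult age is not given in the sources used here. Whether every array holds RNA of its own animal is not stated in the labels, so a p-value here measures the spread among these samples, which may be technical.

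VEGF-A drives the growth and permeability of vessels mainly through its receptor KDR (VEGFR2), while FLT1 (VEGFR1) binds VEGF-A tightly with weak signalling and can act as a trap, and placental growth factor binds FLT1 and not KDR. Angiopoietin-1 activates the receptor TEK (Tie2) and keeps vessels quiet, angiopoietin-2 opposes it in many settings and accompanies remodelling, and TIE1 is the related receptor that modulates TEK. Adrenomedullin is a peptide that dilates vessels and acts through Calcrl with a Ramp partner. In the mouse uterus the endometrial vessels become permeable at the implantation site as the embryo attaches, and a new vascular bed then grows in the decidua.

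The level of a gene is given below as the log2 of the processed green intensity of its brightest probe, after subtracting the log2 of the 75th percentile of that array, so a level of 0 means as bright as the 75th percentile. A level belongs to 1 probe, and levels of different genes are not compared. All 10 probes used were well above background on all 29 arrays. Probes that carry the main results are shown here as printed on the array, 5′ to 3′ and in lower case throughout, with the coordinates of the array design (mouse build mm7). For Tek both probes are shown, because they differed in their results. The Pgf probe covers 2003 bases of genome for its 60 bases of sequence, so its match is split.
Vegfa (chr17:44146842-44146901, minus strand): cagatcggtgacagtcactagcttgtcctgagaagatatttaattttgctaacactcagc
Pgf (chr12:83167223-83169225, minus strand): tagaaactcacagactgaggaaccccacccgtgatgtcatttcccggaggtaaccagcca
Angpt2 (chr8:18668127-18668186, minus strand): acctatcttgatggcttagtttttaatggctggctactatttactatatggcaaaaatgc
Kdr (chr5:75351537-75351596, minus strand): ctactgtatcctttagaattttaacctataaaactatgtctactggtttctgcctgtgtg
Flt1 (chr5:146456619-146456678, minus strand): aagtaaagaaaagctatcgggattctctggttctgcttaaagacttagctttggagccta
Tek, used probe (chr4:94266776-94266835, plus strand): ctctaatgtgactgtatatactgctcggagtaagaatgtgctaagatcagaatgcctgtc
Tek, second probe (chr4:94134402-94134461, plus strand): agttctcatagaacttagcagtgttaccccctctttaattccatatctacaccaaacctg

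Slides divided the series. GD1.5 and GD3.5 samples lay on slides 1 to 4 and GD4.5 and GD5.5 samples on slides 5 to 8, so the step between GD3.5 and GD4.5 has no test here, because day and slide cannot be told apart. Between 71.3 and 78.1% of spots were well above background on slides 1 to 4 and between 65.5 and 80.9% on slides 5 to 8. Arrays on slides 1 to 4 were brighter, with a 75th percentile of 1490 to 1840 intensity units, than those on slides 5 to 8, with 734 to 995, and each array was scaled to its own. The number of arrays per group limits the precision. GD3.5 CON replicate 3 lay alone on slide 4. Arrays of 1 group correlated at r = 0.959 to 0.995 over all genes. All 18 other endothelial markers on the list used here (such as Cdh5, Cldn5, Emcn and Vwf) were above background on all 29 arrays, as were all 9 smooth muscle markers (such as Myh11 and Des) and the uterine genes Hoxa10 and Hoxa11. In RNA of whole uterus, fewer cells of a type and less RNA per cell cannot be told apart.

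Growth factors and angiopoietins followed different courses over the 4 days. Vegfa, the main vascular growth factor, averaged 0.67 ± 0.30 in GEN and 0.93 ± 0.17 in CON uteri at GD1.5 and was highest at GD5.5, at 1.55 ± 0.37 in GEN and 1.71 ± 0.15 in CON (SD, n = 3 or 4 arrays). Angpt2, the angiopoietin of remodelling vessels, lay between 0.37 and 0.83 on average in the 6 groups of GD1.5 to GD4.5, and at 1.61 ± 0.54 in GEN and 2.12 ± 0.33 in CON uteri at GD5.5. Pgf, the FLT1 ligand, was lowest at GD1.5, at -1.71 ± 0.28 in GEN and -1.63 ± 0.33 in CON, and highest at GD3.5 in CON, at -0.55 ± 0.35. In the order of its 8 group means the arrays of neighbours were clear of each other at 1 step, GD3.5 GEN (-1.07) above GD4.5 GEN (-1.49). That step crosses the change of slides, so day and slide cannot be told apart in it. Neighbours in the order for Vegfa, Angpt2 and Adm overlapped at every step. Angpt1, the ligand that stabilises vessels, had means of -6.06 (GEN) and -6.18 (CON) at GD1.5, -5.63 (GEN) and -4.82 (CON) at GD3.5, -4.40 (GEN) and -3.82 (CON) at GD4.5 and -3.33 (GEN) and -3.57 (CON) at GD5.5, higher on each later day. Part of that order crosses the change of slides, and the only neighbours without overlap were GD3.5 GEN above GD1.5 GEN.

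Receptors followed other courses. Kdr averaged 1.21 (GEN) and 1.22 (CON) at GD1.5 and between 1.62 and 2.15 in the other 6 groups. The step from GD4.5 CON down to GD1.5 CON was the only one between neighbours without overlap, and it crosses the change of slides. Flt1 was highest in GD3.5 GEN uteri, at 2.94 ± 0.07 (SD, n = 3), clear of its neighbour GD5.5 CON at 2.53 ± 0.29 (SD, n = 4). This step, too, crosses the change of slides. The order of Tek means had 1 clear step, between the GD1.5 and GD3.5 groups (-0.49 to 0.00) and the GD4.5 and GD5.5 groups (-1.98 to -1.28), which is also the change of slides. For Tie1 and Pecam1 every pair of neighbours overlapped, with group means of -0.24 to 0.20 for Tie1 and of -0.90 to 0.06 for Pecam1. The plot of levels by array shows each of these courses.

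**Figure D1:**
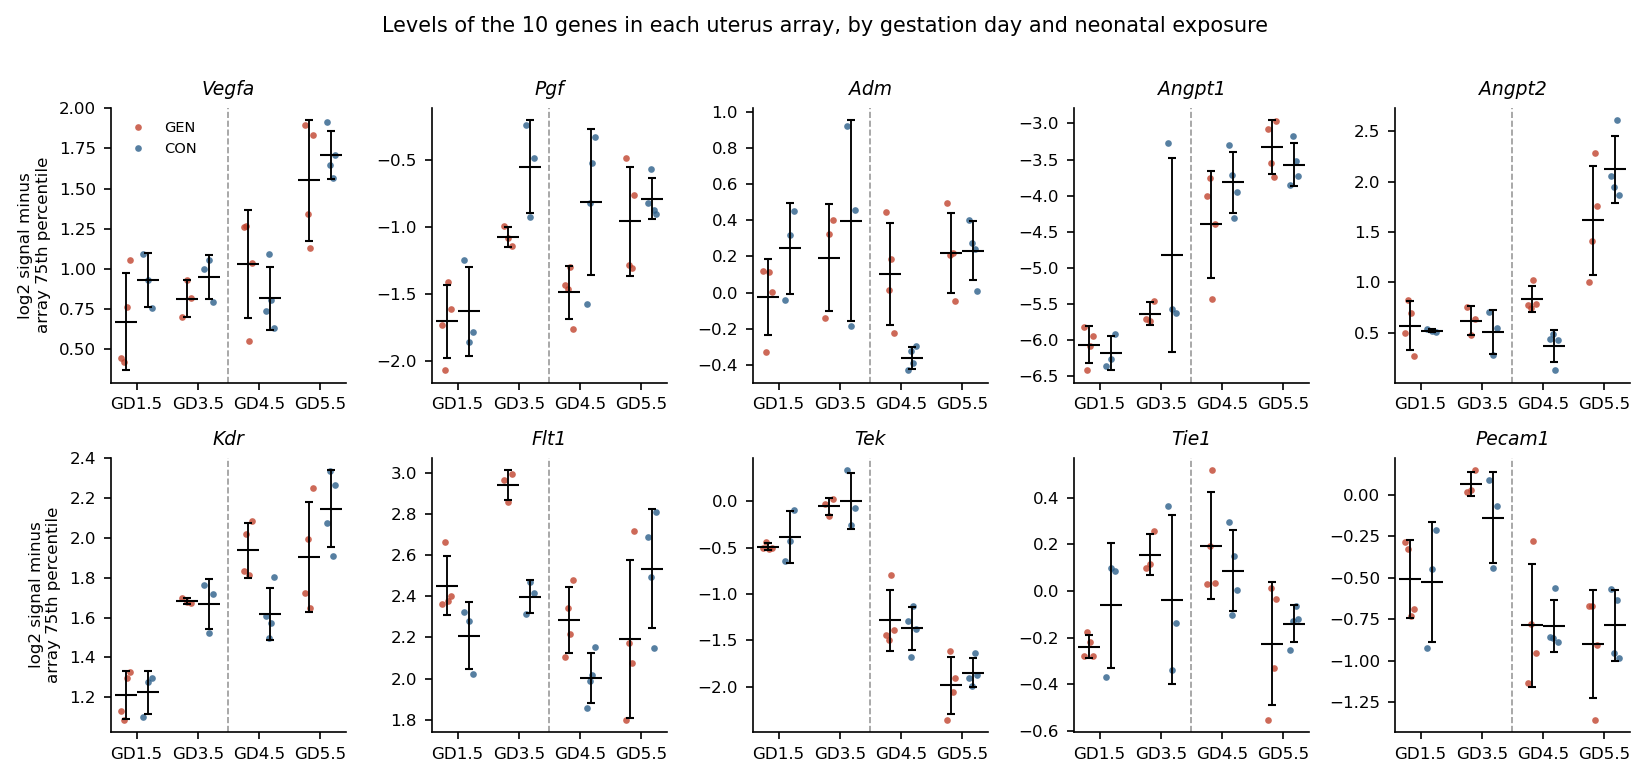
Levels of the 10 genes in each of 29 arrays (points), with the group mean and SD (bars), by gestation day on the x axis and log2 signal minus the array's 75th percentile on the y axis. GEN stands left of CON within each day, and the dashed line marks the change of slides between GD3.5 and GD4.5. Angpt2 lies at 1.01 or higher in all 8 GD5.5 arrays, while Tek lies at -0.79 or lower in all 16 arrays right of the dashed line.

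The first question of the design is whether neonatal genistein altered these genes in the pregnant uterus. No member passed the test between GEN and CON uteri on any of the 4 days or averaged over them (limma over all genes, Benjamini-Hochberg adjusted p under 0.05). The same test called 0.0975% of 20504 genes at GD1.5, 0.103% of 20401 at GD3.5, 0.116% of 21620 at GD4.5 and 0% of 20828 at GD5.5, where 5.29% had an unadjusted p under 0.05, and 1% of 23338 averaged over the days. Against these shares, 0 of 10 members is no result about the members. The members' median difference was -0.05 at GD1.5 (all genes: -0.01), -0.02 at GD3.5 (-0.03), 0.16 at GD4.5 (-0.04) and -0.15 at GD5.5 (-0.01).

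At GD4.5, the day around attachment, 4 of the 10 members had an unadjusted p under 0.05, against 9.39% of all genes. Of these, 3 (Kdr, Angpt2 and Adm) were higher in every GEN array than in any CON array, which held for 1.27% of genes. This share counts the higher direction alone, in which 43.3% of all differences lay that day. The shares given for GEN against CON on the other days count both directions. Angpt2 read 0.78, 0.75, 1.03 and 0.79 in GEN uteri and 0.44, 0.48, 0.13 and 0.42 in CON uteri. That is a difference of 0.47 (SE 0.20; 95% interval 0.06 to 0.88), with an unadjusted p of 0.0272 and an adjusted p of 0.441 in limma, and 0.34 to 0.62 within the 3 slides that held both exposures. Adm read 0.45, 0.01, 0.19 and -0.22 in GEN uteri and -0.43, -0.33, -0.39 and -0.30 in CON uteri. Here the lowest GEN array lay just above the highest CON array, the difference was 0.46 (SE 0.19; adjusted p = 0.420), and it was 0.40 to 0.54 within slides. Kdr read 1.83, 2.02, 1.81 and 2.09 in GEN uteri and 1.61, 1.49, 1.57 and 1.80 in CON uteri. The Kdr difference was 0.32 (SE 0.12; adjusted p = 0.381), and 0.01 to 0.45 within slides. Pgf went the other way without separating, at -1.43, -1.46, -1.29 and -1.76 in GEN uteri and -1.57, -0.82, -0.52 and -0.33 in CON uteri. Its difference was -0.68 (SE 0.23; unadjusted p = 0.00715 and adjusted p = 0.298 in limma), and CON replicate 1 lay among the GEN arrays. With slide as a fixed block the 4 differences were 0.44 for Angpt2, 0.51 for Adm, 0.28 for Kdr and -0.58 for Pgf.

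At GD3.5, Flt1 was the 1 member with an unadjusted p under 0.05, against 5.38% of all genes. It read 2.97, 2.86 and 3.00 in GEN uteri and 2.31, 2.47 and 2.41 in CON uteri, so that all GEN arrays lay above all CON arrays. The difference was 0.54 (SE 0.18; 95% interval 0.17 to 0.91; adjusted p = 0.449), and 0.53 to 0.65 within the 2 slides that held both exposures. Pgf also separated at GD3.5, at -0.99, -1.08 and -1.14 in GEN uteri and -0.24, -0.92 and -0.48 in CON uteri, with a difference of -0.52 (SE 0.27; adjusted p = 0.967). Such separation of 3 arrays from 3 was common, at 20.3% of all genes. At GD1.5 Flt1 alone separated, beside 8.33% of genes, with a GEN minus CON difference of 0.24 (SE 0.17; adjusted p = 1.00).

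At GD5.5 no member separated, beside 1.72% of genes, and 9 of the 10 differences were negative, beside 48.7% of all genes with a positive one. Angpt2 read 1.01, 1.41, 2.28 and 1.76 in GEN uteri and 2.06, 1.95, 2.61 and 1.87 in CON uteri, a difference of -0.51 (SE 0.20; unadjusted p = 0.0175 and adjusted p = 0.760 in limma). Flt1 read 1.80, 2.17, 2.08 and 2.71 in GEN uteri and 2.69, 2.49, 2.15 and 2.81 in CON uteri, a difference of -0.34 (SE 0.15; adjusted p = 0.899). For both genes 3 of 4 GEN arrays lay below the CON mean, and within the 3 shared slides the differences were -0.54 to -0.11 for Angpt2 and -0.75 to -0.09 for Flt1. Tek, Tie1, Pecam1, Vegfa, Pgf and Adm lay between -0.17 and -0.01, Kdr at -0.24 and Angpt1 at 0.24. Averaged over the 4 days, Pgf (-0.36; adjusted p = 0.214) and Flt1 (0.18; adjusted p = 0.460) were the members with an unadjusted p under 0.05, against 9.72% of genes.

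**Figure D2:**
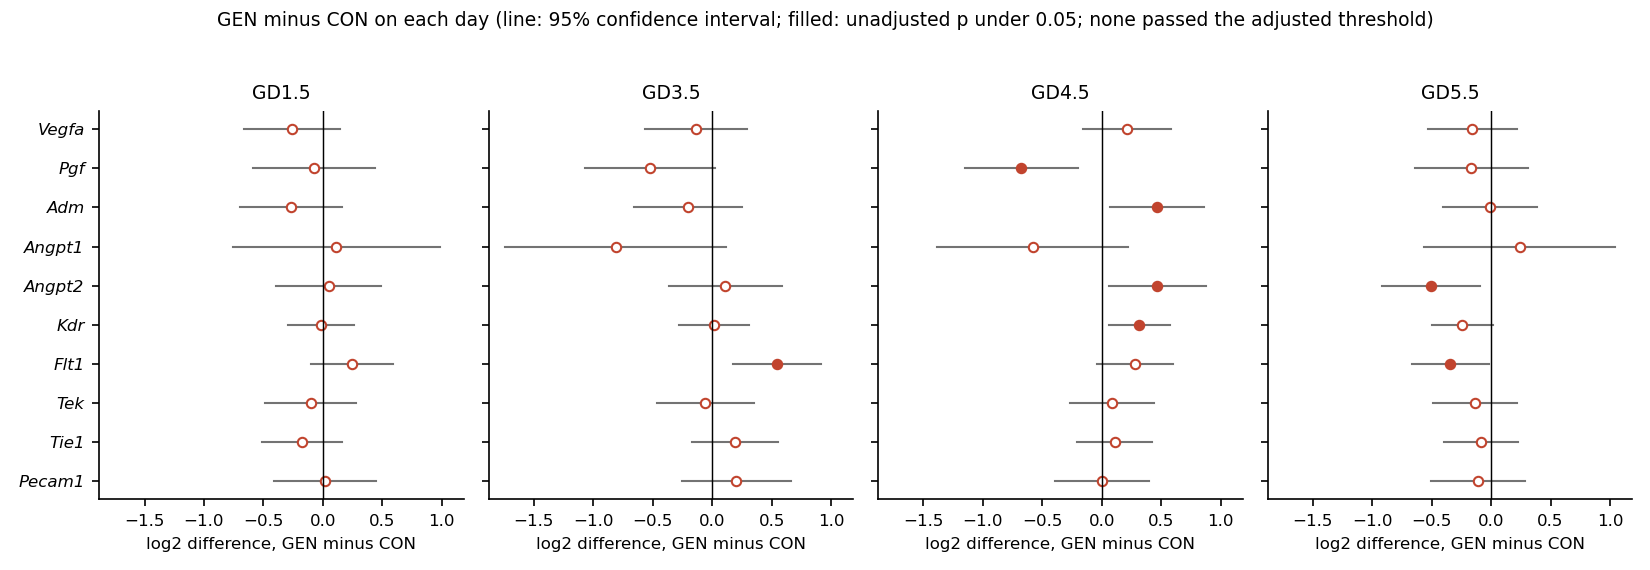
GEN minus CON difference of each gene (y axis) on the log2 scale (x axis) in a panel for each gestation day, with 95% confidence intervals as lines. Filled points had an unadjusted p under 0.05 (Flt1 at GD3.5; Pgf, Adm, Angpt2 and Kdr at GD4.5; Angpt2 and Flt1 at GD5.5), and none passed the adjusted threshold.

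The second question is how the genes change as pregnancy proceeds, within each exposure and between days on the same slides. Between GD1.5 and GD3.5, before attachment, receptors and ligands were mostly higher on the later day. All 10 differences were positive in GEN uteri, with a median of 0.43 beside 0.01 over all genes, and 9 of 10 in CON uteri, with a median of 0.29 beside 0.02. Over the same step adipocyte markers had a median difference of -3.00 in GEN uteri, with 0 of 7 positive, and of -0.13 in CON uteri, with 2 of 7 positive, and leukocyte and platelet markers one of -0.56 in GEN uteri, with 1 of 11 positive and 1 called lower, and of -0.01 in CON uteri, with 5 of 11 positive. The part of these markers in the members' differences was not tested. In GEN uteri 1 member, Kdr, passed the test, beside 4.76% of all genes, and in CON uteri 1 member, Pgf, passed, beside 2.33%. All arrays of GD3.5 lay above all arrays of GD1.5 for 7 members in GEN uteri (Pgf, Kdr, Flt1, Angpt1, Tek, Tie1 and Pecam1; 15.3% of genes) and for 3 in CON uteri (Pgf, Kdr and Angpt1; 12% of genes).

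Kdr, the main VEGF receptor, read 1.70, 1.68 and 1.67 at GD3.5 and 1.13, 1.08, 1.30 and 1.32 at GD1.5 in GEN uteri. The 3 later arrays lay close together and above all earlier ones, and Kdr rose 1.39-fold (log2 difference 0.47, SE 0.13; adjusted p = 0.0400). CON uteri read 1.76, 1.52 and 1.72 for Kdr at GD3.5 and 1.10, 1.27 and 1.30 at GD1.5, again without overlap, for a difference of 0.44 (SE 0.14; adjusted p = 0.114). The GEN call was lost without any of GD1.5 GEN replicates 1, 2 or 3 or of GD3.5 GEN replicates 1, 3 or 4 (adjusted p = 0.0523 to 0.144) and under the replicate block (0.120), and the difference was 0.38 to 0.61 within each of 3 slides. Pgf read -0.24, -0.92 and -0.48 at GD3.5 and -1.25, -1.86 and -1.78 at GD1.5 in CON uteri, and rose 2.12-fold (log2 difference 1.08, SE 0.27; adjusted p = 0.0302). In GEN uteri it read -0.99, -1.08 and -1.14 at GD3.5 and -1.73, -2.07, -1.41 and -1.61 at GD1.5, for a difference of 0.63 (SE 0.25; adjusted p = 0.161). The CON call for Pgf was lost without GD1.5 CON replicate 2 or 3 or GD3.5 CON replicate 1 or 3 (adjusted p = 0.120 to 0.147). It was also lost with slide as a fixed block (1.06; adjusted p = 0.267) and under the replicate block (adjusted p = 0.0678), and the 1 slide that held both days gave 1.01.

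Flt1, Tek, Tie1 and Pecam1 had differences of 0.49, 0.43, 0.39 and 0.58 in GEN uteri, each with an unadjusted p under 0.05 in limma and an adjusted p of 0.0993 to 0.204, and of 0.19, 0.39, 0.02 and 0.39 in CON uteri. Flt1 in GEN uteri passed without GD5.5 GEN replicate 4 (adjusted p = 0.0430) or with only the arrays of these days (0.0219). Angpt2 did not pass the test, with differences of 0.05 in GEN (95% interval -0.39 to 0.49) and -0.01 in CON uteri (-0.48 to 0.46). Vegfa and Adm lay between 0.02 and 0.22 in both exposures. Angpt1 in CON uteri rested on 1 array: it read -3.27, -5.57 and -5.63 at GD3.5 and -6.36, -6.27 and -5.92 at GD1.5 (difference 1.36, SE 0.45; adjusted p = 0.127). The difference between exposures in these changes was called for 0 of 10 members, beside 0% of 21063 genes, where 2.31% had an unadjusted p under 0.05.

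Between GD4.5 and GD5.5, as the decidua forms, Angpt2 and Vegfa were called higher and Tek lower in both exposures in the reported fit. With slide as a fixed block 0 members were called in GEN uteri, and the second Tek probe did not fall in either exposure. In GEN uteri 2 members rose (Angpt2 and Vegfa) and 1 fell (Tek), beside 21% of all genes called (12.4% higher and 8.67% lower). In CON uteri 5 members rose (Angpt2, Vegfa, Kdr, Adm and Flt1) and 1 fell (Tek), beside 30.1% (16% higher and 14% lower). The members' median difference was 0.04 in GEN uteri, beside 0.09 over all genes, and 0.39 in CON uteri, beside 0.02. Arrays did not overlap between days for Angpt1 (higher; 8.27% of genes) and Tek and Tie1 (lower; 6.04%) in GEN uteri, and for Vegfa, Kdr, Angpt2 and Adm (higher; 14.2%) in CON uteri.

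Angpt2 had the largest called difference of a member over this step in each exposure. In GEN uteri it read 1.01, 1.41, 2.28 and 1.76 at GD5.5 and 0.78, 0.75, 1.03 and 0.79 at GD4.5, with GD5.5 replicate 1 just below the highest GD4.5 array. It rose 1.72-fold there (log2 difference 0.78, SE 0.20; adjusted p = 0.00915), and was higher by 0.66 and 0.73 within the 2 slides that held both days. With slide as a fixed block the difference was 0.84 and its adjusted p 0.0516, and with only the arrays of these days 0.0583. In CON uteri it read 2.06, 1.95, 2.61 and 1.87 at GD5.5 and 0.44, 0.48, 0.13 and 0.42 at GD4.5, with every later array far above every earlier one. It rose 3.37-fold there (log2 difference 1.75, SE 0.20; 95% interval 1.35 to 2.16; adjusted p = 1.84e-06), and by 1.44 to 2.17 within each of the 4 slides. This was 1 of 2 called differences of members that held under all 40 alternatives.

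Vegfa was the other such gene, again in CON uteri. In GEN uteri it read 1.89, 1.34, 1.13 and 1.84 at GD5.5 and 1.26, 1.27, 0.55 and 1.04 at GD4.5, and rose 1.43-fold (log2 difference 0.52, SE 0.18; adjusted p = 0.0422) with overlapping days. In CON uteri it read 1.91, 1.64, 1.57 and 1.71 at GD5.5 and 0.74, 1.09, 0.81 and 0.63 at GD4.5, and rose 1.85-fold (log2 difference 0.89, SE 0.18; adjusted p = 0.000795) with no overlap. The GEN call was lost without GD4.5 GEN replicate 3 or 4, GD5.5 GEN replicate 1 or 4 or GD3.5 GEN replicate 4 (adjusted p up to 0.163), and with slide as a fixed block (0.46; adjusted p = 0.242). It was also lost with normexp (0.33; adjusted p = 0.14), median scaling (0.103) and only the arrays of these days (0.114). Quantile normalization (0.0535), no filter on dim probes (0.0531) and slide as a random block (0.055) lost it too. The 2 slides with both days gave 0.07 and 1.28 in GEN uteri, and the 4 in CON uteri gave 0.82 to 1.07. Adm, the vasodilator peptide, read 0.49, 0.21, 0.22 and -0.05 at GD5.5 and 0.45, 0.01, 0.19 and -0.22 at GD4.5 in GEN uteri (difference 0.11, SE 0.19; adjusted p = 0.701). CON uteri read 0.40, 0.27, 0.24 and 0.01 at GD5.5 and -0.43, -0.33, -0.39 and -0.30 at GD4.5, and Adm rose 1.51-fold (log2 difference 0.59, SE 0.19; adjusted p = 0.0221). The Adm call was lost without replicate 1 of either day (adjusted p = 0.0543 and 0.0692) and with normexp (0.0507).

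Angpt1 and Pgf were higher at GD5.5 in GEN uteri without passing the test. Angpt1 read -3.08, -3.54, -3.74 and -2.96 at GD5.5 and -4.01, -3.76, -5.43 and -4.39 at GD4.5 in GEN uteri (difference 1.07, SE 0.39; adjusted p = 0.0529). The days were barely clear of each other there, and the difference in CON uteri was 0.25 (SE 0.39; adjusted p = 0.705). The GEN difference passed without any of GD3.5 CON replicates 1, 2 or 3, GD4.5 GEN replicates 1 or 2 or GD5.5 GEN replicate 3 (adjusted p = 0.0113 to 0.0468). Its size moved with the background correction, to 1.43 with normexp (adjusted p = 0.00102). With normexp fitted without spots of high local background it was 0.56 (adjusted p = 0.0379). For Pgf the differences were 0.53 in GEN (SE 0.23; adjusted p = 0.0993) and 0.02 in CON uteri (SE 0.23; adjusted p = 0.965).

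Among the receptors, Kdr read 1.72, 2.00, 1.65 and 2.25 at GD5.5 and 1.83, 2.02, 1.81 and 2.09 at GD4.5 in GEN uteri, an overlap on both sides with a difference of -0.03 (SE 0.12; adjusted p = 0.868). In CON uteri it read 2.07, 2.34, 1.91 and 2.27 at GD5.5 and 1.61, 1.49, 1.57 and 1.80 at GD4.5, and rose 1.44-fold (log2 difference 0.53, SE 0.12; adjusted p = 0.00252). The 4 slides with both days gave 0.30 to 0.77 for Kdr in CON uteri, and the call was lost with the mean over probes (0.18; adjusted p = 0.520). Flt1 read 1.80, 2.17, 2.08 and 2.71 at GD5.5 and 2.10, 2.34, 2.22 and 2.48 at GD4.5 in GEN uteri, with a difference of -0.09 (SE 0.15; adjusted p = 0.693). In CON uteri it read 2.69, 2.49, 2.15 and 2.81 at GD5.5 and 1.86, 1.99, 2.02 and 2.15 at GD4.5, and rose 1.44-fold (log2 difference 0.53, SE 0.15; adjusted p = 0.0123), with the days meeting at 2.15. That call was lost with normexp background correction (adjusted p = 0.0513), the mean over probes (0.0720) and only the arrays of these days (0.0637). Tek, the angiopoietin receptor, read -2.36, -1.62, -2.05 and -1.91 at GD5.5 and -1.45, -1.50, -0.79 and -1.39 at GD4.5 in GEN uteri, and fell 1.63-fold (log2 difference -0.70, SE 0.17; adjusted p = 0.00748) without overlap. With slide as a fixed block this was -0.56 (adjusted p = 0.114), with the mean over probes -0.25 (0.341) and with normexp -0.15 (0.462), and the 2 slides with both days gave -1.12 and -0.12. Tek read -1.90, -1.99, -1.63 and -1.87 at GD5.5 and -1.29, -1.68, -1.13 and -1.38 at GD4.5 in CON uteri, and fell 1.40-fold (log2 difference -0.48, SE 0.17; adjusted p = 0.0367). That call was lost without GD4.5 CON replicate 1, 3 or 4 or GD5.5 CON replicate 1, 2 or 4 (adjusted p = 0.0631 to 0.121) and under the replicate block (0.0708). It was also lost with the mean over probes (-0.11; adjusted p = 0.740), normexp (-0.38; 0.107) and median scaling (-0.39; 0.0959). Quantile normalization (-0.42; 0.0540) and only the arrays of these days (0.094) lost it too. Tie1 had differences of -0.42 in GEN (SE 0.15; adjusted p = 0.0503) and -0.23 in CON uteri (SE 0.15; adjusted p = 0.287). The GEN difference passed without any of GD1.5 CON replicate 1, GD3.5 CON replicates 1 or 2, GD4.5 CON replicate 2, GD4.5 GEN replicate 1 or GD5.5 GEN replicate 2 (adjusted p = 0.0334 to 0.0476). Pecam1, carried by endothelial cells at their junctions, had differences of -0.11 in GEN (95% interval -0.51 to 0.28) and 0.01 in CON uteri (-0.39 to 0.40).

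**Figure D3:**
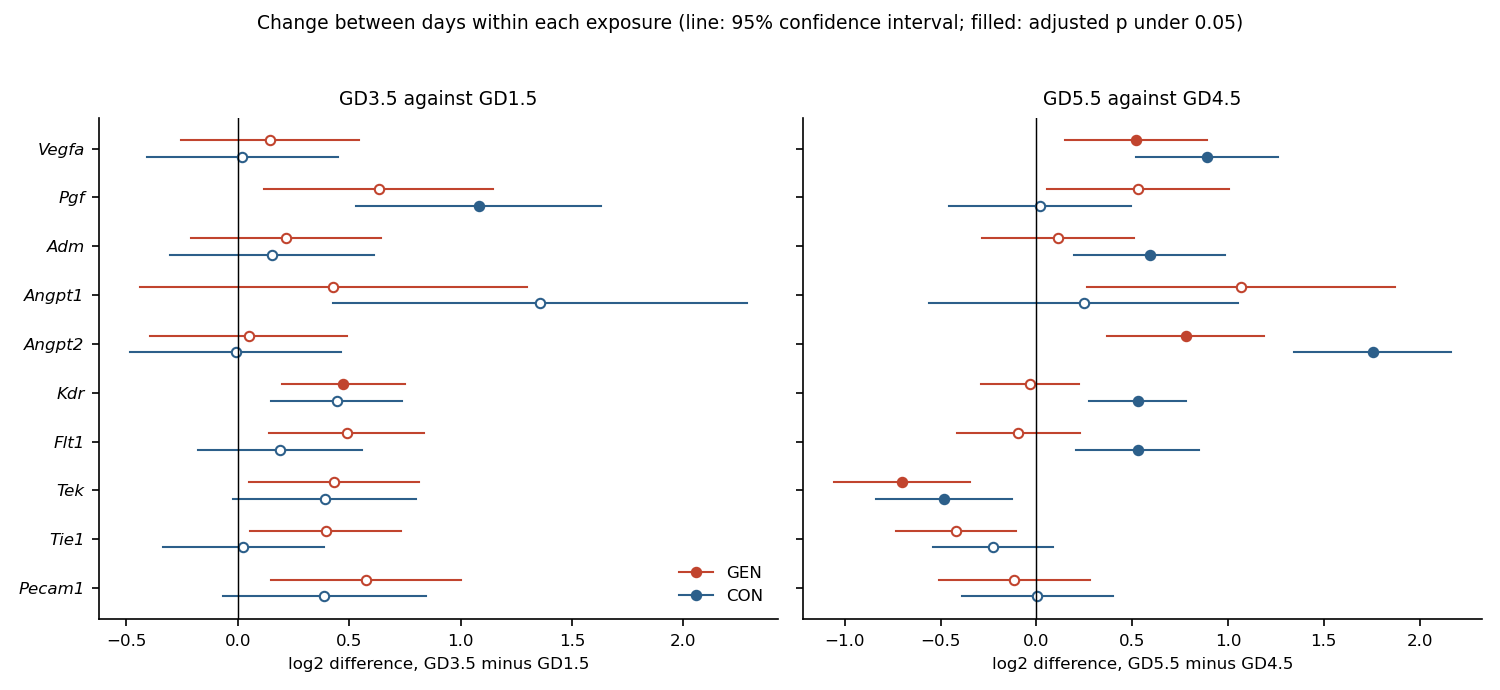
Log2 difference between days (x axis) of each gene (y axis) in GEN (upper, red) and CON (lower, blue) uteri, for GD3.5 minus GD1.5 and GD5.5 minus GD4.5, with 95% confidence intervals as lines and filled points at an adjusted p under 0.05. At GD5.5 against GD4.5, Angpt2 lies at 0.78 in GEN and 1.75 in CON, and Tek lies below 0 in both.

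A call in one exposure and not in the other does not show a difference between them, so the difference of the 2 changes was tested too. It was called for 0 of 10 members, beside 0.00443% of 22549 genes (1 gene). The members with an unadjusted p under 0.05, against 7.19% of genes, were Angpt2, Kdr and Flt1. For Angpt2 the change in GEN uteri was 0.97 log2 units below that in CON uteri (difference -0.97, SE 0.28; 95% interval -1.55 to -0.39; unadjusted p = 0.00203 and adjusted p = 0.528 in limma). For Kdr it was -0.56 (SE 0.17; adjusted p = 0.540) and for Flt1 -0.62 (SE 0.22; adjusted p = 0.588). In all 3 genes GEN uteri lay above CON uteri on average at GD4.5 and below them at GD5.5, and 8 of the 10 members had a negative difference of changes, with a median of -0.30 beside 0.04 over all genes. The 2 comparisons of exposures and the 2 of days share the same arrays, so these values are not separate evidence.

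Several genes had more than 1 probe, which bears on how far each call reaches along the transcript. The 3 Vegfa probes were all higher at GD5.5 than at GD4.5 in both exposures, by 0.52, 0.79 and 0.90 in GEN and by 0.89, 1.25 and 1.03 in CON uteri. The other 2 correlated with the one used at r = 0.979 and 0.947 over the 29 arrays, which share days and slides. Of the 5 Flt1 probes, 1 lay 13 bases from the one used and gave -0.15 in GEN and 0.53 in CON uteri. A probe 75.9 kb further 5′, also above background on all arrays, gave 0.26 in GEN and 0.90 in CON uteri, and the other 2, at 83.3 and 92.1 kb, were above background on 1 and 19 arrays. At GD3.5 the 3 bright Flt1 probes gave GEN minus CON differences of 0.54, 0.45 and 0.48. The second Tek probe, 132 kb 5′ of the one used, was above background on all arrays but correlated with it at r = -0.60, and read 0.20 (SE 0.28) in GEN and 0.27 (SE 0.28) in CON uteri where the probe used fell. That probe carries the name Tek by its symbol and not by a matched accession, so the fall of Tek rests on 1 probe. The second Angpt1 probe (above background on 28 arrays, r = 0.88) gave 1.47 in GEN and 0.66 in CON uteri, and the second Kdr and Pecam1 probes were above background on 1 and 4 arrays.

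**Figure D4:**
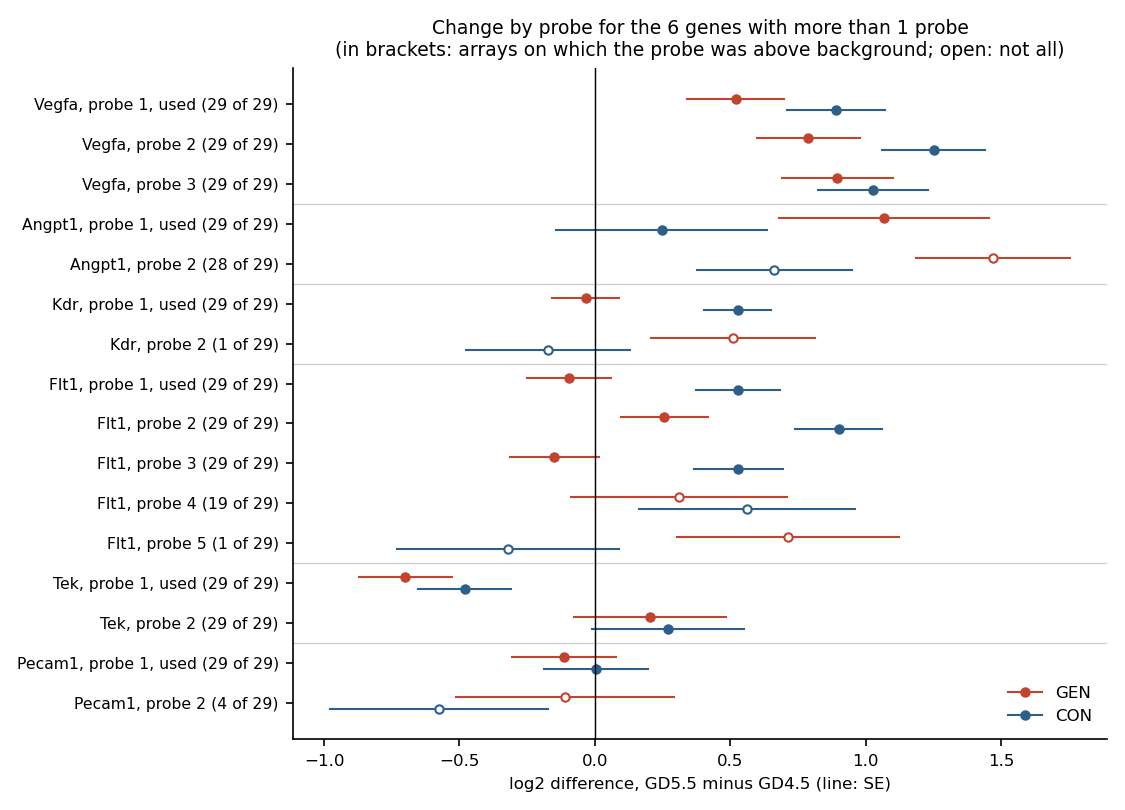
Log2 difference between GD5.5 and GD4.5 (x axis, line: SE) for each probe of the 6 genes with more than 1 probe (y axis), in GEN (upper, red) and CON (lower, blue) uteri. Open points mark probes not above background on all 29 arrays. All 3 Vegfa probes lie above 0, whereas the 2 Tek probes lie on opposite sides of 0.

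Other genes of the same pathways were examined beside the members. Their counts stand beside the shares of all genes called. Between GD4.5 and GD5.5 these were 12.4% higher and 8.67% lower in GEN, and 16% higher and 14% lower in CON uteri. Between GD1.5 and GD3.5 they were 4.76% in GEN and 2.33% in CON uteri, and between exposures averaged over the 4 days 1%. Of 11 other VEGF pathway genes, 4 fell and 0 rose between GD4.5 and GD5.5 in GEN uteri, namely the chemokine Cxcl12 (-0.96, adjusted p = 0.00116), the co-receptor Nrp2 (-0.46), the signalling enzyme Plcg1 (-0.37) and the lymphatic VEGF receptor Flt4 (-0.48). In CON uteri 1 rose, Vegfc (0.33, adjusted p = 0.0415), the ligand of Flt4, and Cxcl12 fell (-0.59). Averaged over the 4 days, Vegfc was also the 1 pathway gene that differed between exposures, higher in GEN than in CON uteri by 0.37 (SE 0.06; adjusted p = 0.00280). Between GD1.5 and GD3.5 in GEN uteri 1 pathway gene rose, Egfl7 (0.54, adjusted p = 0.0430), which endothelial cells secrete.

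Of 9 other genes of the Tie and adrenomedullin pathways that were tested, 2 fell in GEN uteri between GD4.5 and GD5.5, the adrenomedullin receptor Calcrl (-0.90, adjusted p = 0.00162) and the Tek phosphatase Ptprb (-0.62, adjusted p = 0.0134). In CON uteri 4 fell, among them Ramp1, a partner of Calcrl (-1.25, adjusted p = 0.000599), Ptprb (-0.65) and Calcrl (-0.47), and the ligand Angpt4 rose (1.82, adjusted p = 0.00841). Adm2, a relative of adrenomedullin, was well above background on all 3 GD3.5 CON arrays and on no GD1.5 CON array. It entered that test through the GD3.5 arrays alone, so its call is not used here. As a bound, it was at least 1.86-fold higher at GD3.5 in CON uteri. The bound sets the mean at GD3.5 against the lowest signal well above background on each GD1.5 array.

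Of 18 other endothelial markers, none was called between GEN and CON uteri on any day, and the list's median difference was -0.01 at GD1.5, 0.09 at GD3.5, -0.01 at GD4.5 and 0.00 at GD5.5. Between GD1.5 and GD3.5, 16 of 18 differences were positive in each exposure, with medians of 0.45 in GEN and 0.43 in CON uteri. In GEN uteri 6 rose, among them Robo4 (0.61, adjusted p = 0.00413), the transcription factor Erg (0.57), Cd34 (0.69) and the transcription factor Sox18 (0.71), and in CON uteri none was called. Over all genes 4.76% were called in GEN and 2.33% in CON uteri. Between GD4.5 and GD5.5 the list had medians of -0.13 in GEN and -0.15 in CON uteri, where 8.67% and 14% of all genes were called lower. In GEN uteri 6 fell and 0 rose, including Sox17 (-1.12, adjusted p = 0.00753), Erg (-0.50), Cldn5 (-0.74) and Cd34 (-0.48). In CON uteri 7 fell, including Sox17 (-1.66, adjusted p = 0.000123), Cd34 (-0.59) and Erg (-0.46), and the junction gene Cdh5 rose (0.85, adjusted p = 0.00443). In RNA of whole uterus these genes, Sox17 among them, may also come from cells other than endothelium. Over the same step 5 of 12 epithelium and gland markers fell in CON and 1 of 11 in GEN uteri, and their part was not tested.

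Lists of sprouting and of low-oxygen response genes held calls in both directions between GD4.5 and GD5.5, where 21% of all genes were called in GEN and 30.1% in CON uteri. Of 12 Notch and tip cell genes, 3 rose and 3 fell in GEN uteri, with the netrin receptor Unc5b (2.82, adjusted p = 0.000114) and the tip cell peptide Apln (1.47) up and Jag1 (-1.31) and Hey2 (-1.20) down. In CON uteri 5 rose and 1 fell, led by Unc5b (4.22, adjusted p = 2.16e-07), Esm1 (2.03), Notch4 (1.53) and Apln (1.52). Of 14 low-oxygen response genes, 3 rose and 2 fell in GEN uteri and 4 rose and 1 fell in CON uteri. They included the glucose transporter Slc2a1 (1.95 in GEN and 2.99 in CON uteri), the glycolytic enzyme Pgk1 (0.92 in GEN and 1.12 in CON), the hypoxia-inducible factor Epas1 (1.28 in GEN and 2.06 in CON) and, falling, Ddit4 (-0.67 in GEN and -0.60 in CON). Of 8 genes on the pericyte list, 4 fell in GEN uteri, including Abcc9 (-1.34) and Notch3 (-0.94). In CON uteri Kcnj8 (-1.27) and Rgs5 (-1.22) fell and Pdgfb rose (0.39). Pdgfb encodes a ligand of the pericyte receptor Pdgfrb and is not itself a pericyte marker. Of 11 other angiogenic factors and inhibitors, 3 fell in GEN uteri, and 5 fell and 1 rose in CON uteri, with Col18a1 (-0.92 in GEN and -1.23 in CON) and Pdgfa (-0.83 in GEN and -0.72 in CON) lower in both. Reln, a lymphatic endothelial marker, fell in both exposures (-1.74 in GEN and -1.16 in CON), as 1 of 2 such markers called in GEN and the 1 called in CON.

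Markers of other cells moved on the same days, and their part in the results for the 10 genes was not tested. The shares of all genes called between GD4.5 and GD5.5 were 21% in GEN and 30.1% in CON uteri. Between GD4.5 and GD5.5, 7 of 12 decidualization genes rose in GEN uteri and 8 in CON uteri, with medians of 1.75 in GEN and 1.97 in CON, among them Bmp2 (3.18 in GEN and 4.30 in CON) and Wnt4 (2.93 in GEN and 3.95 in CON). Prl8a2, a decidual prolactin, also rose in both, but was above background on 2 of 4 GD4.5 arrays of each exposure. Of 6 trophoblast markers tested, 2 rose in GEN uteri and 3 rose and 1 fell in CON uteri. Their mean level lay between -3.36 and -2.28 in GEN and between -2.72 and -2.16 in CON arrays at GD5.5, and between -4.24 and -3.47 in GEN and between -3.67 and -3.25 in CON arrays at GD4.5. Prl3d1, a hormone of trophoblast giant cells, rose by 3.98 in GEN and 5.07 in CON uteri, while the trophoblast factor Hand1 was above background on no array. Of 8 such markers with a probe, 5, Prl3d1 among them, were above background on all 29 arrays, so also before attachment at GD1.5 and GD3.5. The signal of these probes is therefore not particular to trophoblast here. In GEN uteri 1 of 9 smooth muscle markers rose, 0 of 11 leukocyte and platelet markers were called and 1 of 11 epithelium and gland markers fell. In CON uteri 5 of 9 smooth muscle markers fell and 1 rose, 6 of 11 leukocyte and platelet markers fell and 5 of 12 epithelium and gland markers fell. No red blood cell or adipocyte marker was called between these days, but adipocyte markers had a median difference of -2.29 in GEN uteri, with 0 of 7 positive, and of -2.14 in CON uteri, with 2 of 7 positive. Their mean level lay between -4.75 and -3.35 in GEN and between -4.08 and -0.54 in CON arrays at GD5.5, and between -4.38 and 2.48 in GEN and between -4.04 and 0.02 in CON arrays at GD4.5.

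Between exposures, 5 of 12 epithelium and gland markers averaged over the 4 days were lower in GEN uteri, beside 1% of all genes called in either direction. Among them were Foxa2 (-1.40, adjusted p = 0.000472), which glands need to form, Sox9 (-1.51) and Wfdc3 (-1.52). Ttr, also among the 5, was above background on no GEN array and entered the tests through CON arrays alone. As a bound, it was at least 2.52-fold lower in GEN than in CON uteri at GD3.5. The mean level of the 12 markers lay between -1.18 and -0.78 in GEN and between 0.53 and 1.23 in CON arrays at GD3.5, where Flt1 and Pgf separated, and between -0.03 and 0.41 in GEN and between 1.47 and 1.91 in CON arrays at GD4.5, where Kdr, Angpt2 and Adm separated. Adipocyte markers had a median difference of 2.41 at GD1.5 with 8 of 8 positive and none called, and their mean level spanned -3.61 to 0.83 in GEN and -4.43 to -1.78 in CON arrays. The part of either list in the members' differences was not tested.

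Likeness of pattern over the 29 arrays was measured by Pearson's r after the mean of each slide set (GD1.5 with GD3.5, GD4.5 with GD5.5) had been subtracted. The arrays share days, exposures and slides, so r is a description. Among 16271 genes above background on all arrays, Tek was most like Tspan5 (r = 0.885), Tie1 (0.878) and Gab1 (0.869), and Tie1 was most like Tek, Gja4 (0.811) and Adam5 (0.799). These 2 receptors were the only pair of members among each other's 3 nearest named genes. Kdr was most like Fgd5 (0.894), an endothelial exchange factor, Sema7a (0.826) and Nup214 (0.817). Flt1 was most like Ubr4 (0.832), Adgrl2 (0.824) and Trrap (0.821). Vegfa was most like Wwc2 (0.908), Fem1b (0.903) and Hand2 (0.897), a stromal transcription factor of the uterus, and Angpt2 was most like Hsd17b1 (0.847), a steroid enzyme, Kazald1 (0.821) and Jcad (0.818). The nearest named gene reached 0.799 for Pgf (Adipor2), 0.747 for Pecam1 (Brd8), 0.715 for Angpt1 (Nrarp) and 0.708 for Adm (Vbp1). Between members, Vegfa ran against Tek at r = -0.62 and with Angpt2 at 0.54, and Kdr ran with Flt1 at 0.70.

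Promoters of the 4 receptors are shown because Kdr with Flt1 and Tek with Tie1 moved together, and because endothelial promoters are known for binding sites of ETS factors such as Erg. Each covers 250 bases before and 50 after the annotated start in RefSeq (build GRCm38.p6), 5′ to 3′ on the strand of the gene, with the ETS core GGAA, or its reverse complement TTCC, in capitals. Of the 10 genes, 7 had a promoter in the table, with 9 starts in all.
Kdr promoter (chr5:75978406-75978705, minus strand): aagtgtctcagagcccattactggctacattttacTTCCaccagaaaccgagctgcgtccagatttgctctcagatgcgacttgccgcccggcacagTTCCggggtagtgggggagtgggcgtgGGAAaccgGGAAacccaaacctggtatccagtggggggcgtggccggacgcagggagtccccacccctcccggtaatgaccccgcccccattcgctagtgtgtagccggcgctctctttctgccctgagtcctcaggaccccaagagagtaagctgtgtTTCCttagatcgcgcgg
Flt1 promoter (chr5:147725962-147726261, minus strand): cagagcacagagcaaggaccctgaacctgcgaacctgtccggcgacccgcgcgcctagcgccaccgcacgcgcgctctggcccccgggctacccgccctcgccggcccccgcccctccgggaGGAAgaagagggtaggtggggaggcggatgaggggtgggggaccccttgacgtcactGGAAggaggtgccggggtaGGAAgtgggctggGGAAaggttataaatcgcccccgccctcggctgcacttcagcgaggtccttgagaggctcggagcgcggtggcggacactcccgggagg
Tek promoter (chr4:94739039-94739338, plus strand): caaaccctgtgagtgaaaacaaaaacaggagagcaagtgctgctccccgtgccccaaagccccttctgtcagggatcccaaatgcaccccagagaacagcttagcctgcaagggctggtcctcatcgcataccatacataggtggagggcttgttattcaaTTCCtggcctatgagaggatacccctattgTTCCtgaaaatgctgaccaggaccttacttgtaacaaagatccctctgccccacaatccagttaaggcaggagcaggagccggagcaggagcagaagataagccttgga
Tie1 promoter (chr4:118489800-118490099, minus strand): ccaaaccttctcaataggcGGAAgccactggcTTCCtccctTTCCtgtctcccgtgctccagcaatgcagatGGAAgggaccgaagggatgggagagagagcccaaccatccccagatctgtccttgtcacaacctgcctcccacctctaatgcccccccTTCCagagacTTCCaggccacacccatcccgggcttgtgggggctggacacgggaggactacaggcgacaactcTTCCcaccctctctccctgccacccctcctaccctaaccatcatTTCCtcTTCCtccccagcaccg
Tie1 held 9 such cores, Kdr 5, Flt1 4 and Tek 2. Of 32851 mouse promoters of this length, 96% held at least 1, 84.6% at least 2, 46.3% at least 4, 28.6% at least 5 and 1.59% at least 9. Tek and Tie1, alike in their course over the arrays, had the lowest and the highest count of the 4. The core of the hypoxia element, ACGTG on either strand (CACGT), was in 0 of these 4 and in 19.6% of all promoters, and among the members it was found once, at the second Vegfa start. A match of 4 or 5 letters is a description of the sequence and not a bound site.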

How the data were processed

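RNA from 29 uterus samples was labelled with Cy3 and hybridised to one-colour Agilent mouse arrays, per the labels. The deposited scanner files give, per spot, an intensity processed by the authors with Agilent Feature Extraction 9.5, per the submitters' processing notes, and flags for signal above background. The deposited series table held the same intensity values (difference 0%), and 0 columns were left unused. From these, 43379 non-control spots were averaged to 41174 probes, scaled to each array's 75th percentile and taken to log2. Each gene was represented by its brightest probe, and a gene was tested where at least 3 arrays among all those of the groups compared held it well above background. Names came from accessions for 22951 probes and otherwise from symbols, synonyms or the file.

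All 29 arrays entered 1 limma 3.58.1 fit (R 4.3.3) with a mean per exposure and day, and p-values were adjusted by Benjamini-Hochberg over all genes tested. The code was tested on simulated data. Alternatives covered background correction, scaling, the filter on dim probes, probe choice, slide and replicate blocks, the arrays fitted and leaving out each array. The reported fit did not pair samples on any day. Pairing by replicate number entered only the replicate block, an alternative run for every comparison. At GD5.5 all 4 GEN and CON pairs of a number correlated at r = 0.21 to 0.51 in their deviations from the group means, and 3 shared a slide. On the other days such pairs correlated at r = -0.24 to 0.22. Named genes were the 10 members, up to 4 called genes per list and comparison by smallest adjusted p, and the 3 genes most like each member. Of 155 genes on 15 lists, 152 had a probe. The members and lists were chosen with earlier results of these data known.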

Additional observations from a re-analysis of the deposited data

Results flagged for a closer look

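In 4 of 50 groups of 4 arrays, 1 array lay farther from the others than Dixon's 95% criterion allows, where chance gives about 1 in 20. Flt1 read 2.66 in GD1.5 GEN replicate 2, and the other 3 arrays of that group read 2.36 to 2.40. Angpt2 read 1.03 in GD4.5 GEN replicate 3, and the others read 0.75 to 0.79. Tek read -0.79 in the same array, and the others read -1.50 to -1.39. Pecam1 read -0.56 in GD4.5 CON replicate 3, and the others read -0.89 to -0.86.

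Tie1 was flagged because its GEN arrays lay on opposite sides of the CON mean on the early days. All 3 GEN arrays lay above the CON mean at GD3.5, by 0.19 on average, and all 4 GEN arrays lay below it at GD1.5, with a GEN minus CON difference of -0.18. The difference between these differences was 0.37 (SE 0.24) and was not called (limma, unadjusted p = 0.136 and adjusted p = 1.00). GEN and CON arrays of Tie1 overlapped on both days. Within the slides that held both exposures, its difference was 0.19 and -0.31 at GD1.5 and -0.27 and 0.59 at GD3.5.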

How the results depend on the processing

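Angpt2 and Vegfa between GD4.5 and GD5.5 in CON uteri were called under all 40 alternatives, as 2 of the 11 called differences of members, and none of the 11 changed sign. GEN against CON at GD5.5 gave 0 members called, but 4 with normexp background correction. Over all genes that correction called 9507 there, and 8 once its model was refitted without spots of high local background, an alternative chosen after seeing the data, which called 0 members. For GD3.5 against GD1.5, the 1 call in GEN uteri became 0 with normexp, with no filter on dim probes, with the mean over probes and under the replicate block, and 2 with only the arrays of those days, with 0 to 2 when single arrays were left out. In CON uteri the 1 call became 0 with median scaling, slide as a fixed block and the replicate block, and 2 with only those days, with 0 to 1 when single arrays were left out. For GD5.5 against GD4.5, the 3 calls in GEN uteri became 5 among genes above background on all 29 arrays, 0 with slide as a fixed block and 1 with only those days, with 2 to 5 when single arrays were left out. In CON uteri the 6 calls became 3 with normexp and 3 with the mean over probes, with 4 to 6 when single arrays were left out. With the mean over probes, which adds a Kdr probe above background on 1 of 29 arrays, Kdr turned to -0.33 for GEN against CON at GD4.5 and to 0.061 for the difference of changes. The replicate block changed no call of a member for GEN against CON at GD5.5. It did lose the Tek call for GD5.5 against GD4.5 in CON uteri (limma, adjusted p = 0.0708). With normexp the median of all genes was 0.28 at GD5.5 (-0.01 in the reported fit), 0.36 for GD5.5 against GD4.5 in GEN uteri (0.09), where 82.9% of calls were higher (58.8%), 0.15 for GD3.5 against GD1.5 in CON uteri (0.02) and 0.45 for the late difference of changes (0.04). Other causes were not tested. Dim probes limit the second probes of Kdr, Pecam1 and Flt1. The Angpt1 probe used was well above background on all arrays, but read only between -6.41 and -2.96.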
